A study of Homo sapiens with 12 samples.

Results

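A set of 655 genomic regions carried an ATAC-seq peak in at least 4 of the 6 libraries from G401 cells induced to make GFP and in 0 of the 6 libraries from cells induced to make SMARCB1. They were found by merging the peaks of all 12 peak lists wherever peaks overlapped by at least 1 bp, which gave 187088 regions covering 31.5 Mb, and by counting the lists with a peak in each region. These regions are called lost here. Of the 30918 regions present in at least 4 GFP lists, they made up 2.12%. The mirrored rule, at least 4 SMARCB1 lists and 0 GFP lists, gave 29317 gained regions, which were 45.5% of the 64444 regions present in at least 4 SMARCB1 lists. The SMARCB1 lists were longer, and with every list shortened to the 33428 peaks of the shortest by p, 3990 regions were lost and 8111 gained, and 424 of the 655 (64.7%) were still lost. Presence in the lists chose the lost regions, so their absence from the SMARCB1 lists is a description and not a result.

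All 12 libraries came from G401, a long-established line grown from a rhabdoid tumour, and share its SMARCB1(-/-) genotype. The 4 groups of 3 libraries were GFP with DMSO, GFP with dBRD9-A, SMARCB1 with DMSO and SMARCB1 with dBRD9-A. Doxycycline, which switches on the introduced GFP or SMARCB1, was given for 24 h together with the vehicle DMSO or with dBRD9-A, a degrader of BRD9. Whether the inducible cells were clones or pools, and whether the replicates came from separate cultures, is not given in the sources used here, so p-values measure only the spread between these libraries. SMARCB1 and BRD9 amounts were not analysed here, and induction and degradation are taken from the labels.

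SMARCB1 is a core subunit of the canonical SWI/SNF (BAF and PBAF) chromatin remodelling complexes, which use ATP to move or evict nucleosomes and keep enhancers and promoters accessible. Rhabdoid tumours are defined by its loss. BRD9 belongs to a non-canonical form of the complex that assembles without SMARCB1. In ATAC-seq a transposase cuts accessible DNA, so a peak marks a stretch that is open in part of the cells, and a missing peak marks a signal below the caller's threshold and not closed chromatin.

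The lists held between 33428 and 96572 peaks. A background pileup, the number of overlapping fragments expected at an average position and a measure of depth, was recovered for each library. The GFP libraries had 0.0517 ± 0.0171 and the SMARCB1 libraries 0.0827 ± 0.0217 (SD, n = 6 each). The shallowest SMARCB1 library, dBRD9-A replicate 2 with 0.0487, was below GFP DMSO replicate 1 and GFP dBRD9-A replicate 3 and above the other GFP libraries. At the 18114 regions with a peak in all 12 lists, the geometric mean of the summit pileup was 16.7 ± 4.71 in GFP and 17.6 ± 2.76 in SMARCB1 libraries (SD, n = 6 each).

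The lost regions were spread unevenly over the rule's range. A peak was present in 6 of 6 GFP lists for 116 of them, in 5 for 182 and in 4 for 357. Read against all regions of the same GFP count, the lost regions were 0.551% of the 21043 regions in 6 GFP lists, 3.5% of the 5202 in 5 and 7.64% of the 4673 in 4. Regions that GFP libraries held less regularly were thus more often without any SMARCB1 peak. Just outside the rule lay 795 regions with 3 GFP lists and 0 SMARCB1 lists, and 756 with at least 4 GFP lists and 1 SMARCB1 list.

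The regions were weak for peaks seen this often. The height of a peak is given here as its summit pileup, in fragments, and its rank as the percentile of the authors' fold enrichment within its own list, where 100 is the highest fold. The median over lost regions of the mean pileup was 6.4 fragments, against 11.8 for the other 30263 regions in at least 4 GFP lists and 17.5 for the regions in all 12 lists. The median of the mean percentile was 32.9 (interquartile range 24.4 to 42.5) for lost regions, 58.0 for the other regions and 74.0 for regions in all 12 lists. Within the set it was 45.2 for regions in 6 GFP lists, 36.0 in 5 and 28.5 in 4. The neighbours of the rule were weaker or alike: the median was 24.7 with 3 GFP lists and 0 SMARCB1 lists, and 30.8 with at least 4 GFP lists and 1 SMARCB1 list.

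The share of regions lost fell with their strength. Among regions in at least 4 GFP lists, 8.84% of the 1007 with a mean percentile of 10 to 20 were lost, 4.48% of the 4037 between 30 and 40, and 0.422% of the 3787 between 60 and 70. Above that, 2 of 3612 regions were lost between 70 and 80, 1 of 3751 between 80 and 90 and 1 of 3211 between 90 and 100. The 57 regions in the lowest bin are few, and 8 of them were lost.

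**Figure D1:**
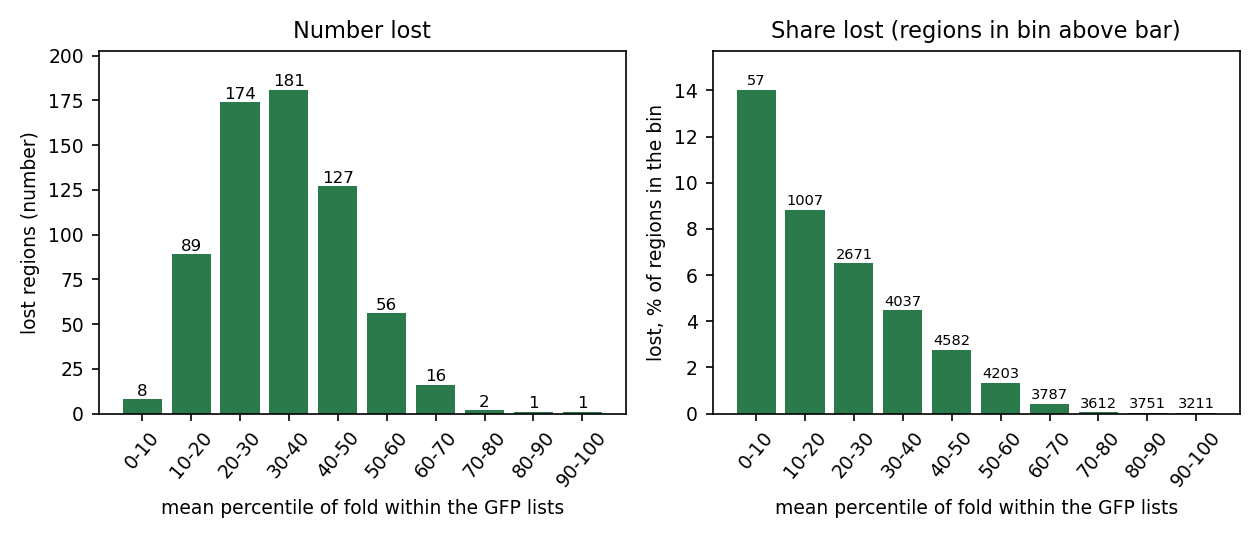
Regions present in at least 4 of 6 GFP lists, grouped by the mean percentile of their fold within the GFP lists (horizontal axes). The left panel gives the number lost in each bin (181 between 30 and 40, 1 between 90 and 100), and the right panel the percent of the bin that was lost, with the number of regions in the bin above each bar.

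Lost regions were narrower than the other regions in at least 4 GFP lists. Their median width was 147 bp (interquartile range 116.5 to 212 bp, range 85 to 718 bp). It was 235 bp for those other regions, 233 bp for gained regions and 282 bp for regions in all 12 lists. All regions had a lower median, 126 bp. Just outside the rule it was 122 bp with 3 GFP and 0 SMARCB1 lists, and 138 bp with at least 4 GFP lists and 1 SMARCB1 list. Lost regions in 6 GFP lists had a median of 199 bp. A merged region widens as more lists add a peak, so widths are best set against single peaks: the lost regions' own peaks had median widths of 88 to 103 bp in the 6 GFP lists, and all peaks of those lists 113 to 119 bp. Summits of different libraries lay within 40 bp of each other at the median lost region, and within 33 bp at the median of the other regions.

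The strongest lost regions were the upper end of a graded range, in which the first lay well above the second (mean percentile 98.1 against 81.5). The region of highest rank, chr3:14393615-14393913 (hg19), had summit pileups of 57, 31 and 41 fragments in the GFP DMSO libraries and 35, 33 and 52 with dBRD9-A. Its fold over background was 21.0 to 28.5 and its mean percentile 98.1, so it was among the tallest peaks of every GFP list. No SMARCB1 list had a peak there, and the closest peak of any SMARCB1 list lay 1132 bp away. The strongest regions by this rank follow in order, with GFP DMSO replicates 1, 2 and 3 before dBRD9-A replicates 1, 2 and 3.

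The second was chr6:72130492-72130798, with 27, 16 and 13 fragments in DMSO and 17, 15 and 28 in dBRD9-A, and 7910 bp from any SMARCB1 peak. At the third, chr12:122300473-122300657, the libraries disagreed more: 8, 26 and 27 in DMSO against 17, 19 and 40 in dBRD9-A. The low value was that of DMSO replicate 1, although this library was among the deepest of the GFP libraries. A SMARCB1 peak lay 642 bp away and a gained region 3041 bp away. On chromosome 6, chr6:112668427-112668646 had 20, 12 and 15 fragments in DMSO and 11, 11 and 16 in dBRD9-A, and its nearest SMARCB1 peak, 9773 bp away, belonged to a region present in all 12 lists. Both treatments overlapped at each of these.

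The next 6 regions in all GFP lists had mean percentiles of 61.6 to 69.6. The pileups at chr19:11998495-11998711 were 22, 13 and 8 in DMSO and 8, 13 and 11 in dBRD9-A. At chr8:1476280-1476397 they were 17, 15 and 13 in DMSO and 11, 12 and 22 in dBRD9-A. This region was 118 bp wide and lay 167534 bp from the nearest region present in all lists, the longest such distance among the 10 strongest. Those at chr15:66963545-66963789 were 21, 13 and 6 in DMSO and 14, 16 and 17 in dBRD9-A. Those at chr9:138994525-138994803 were 20, 16 and 14 in DMSO and 6, 8 and 26 in dBRD9-A. This last region is 1 of a run of 3 described further on. The pileups at chr6:44030639-44030783 were 13, 15 and 6 in DMSO and 6, 15 and 16 in dBRD9-A. Those at chr10:54073868-54074078 were 19, 12 and 12 in DMSO and 9, 12 and 10 in dBRD9-A, and here a gained region lay only 132 bp away. Within 1 kb of a gained region lay 26 lost regions (3.97%), against 3.00% of the other regions in at least 4 GFP lists.

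**Figure D2:**
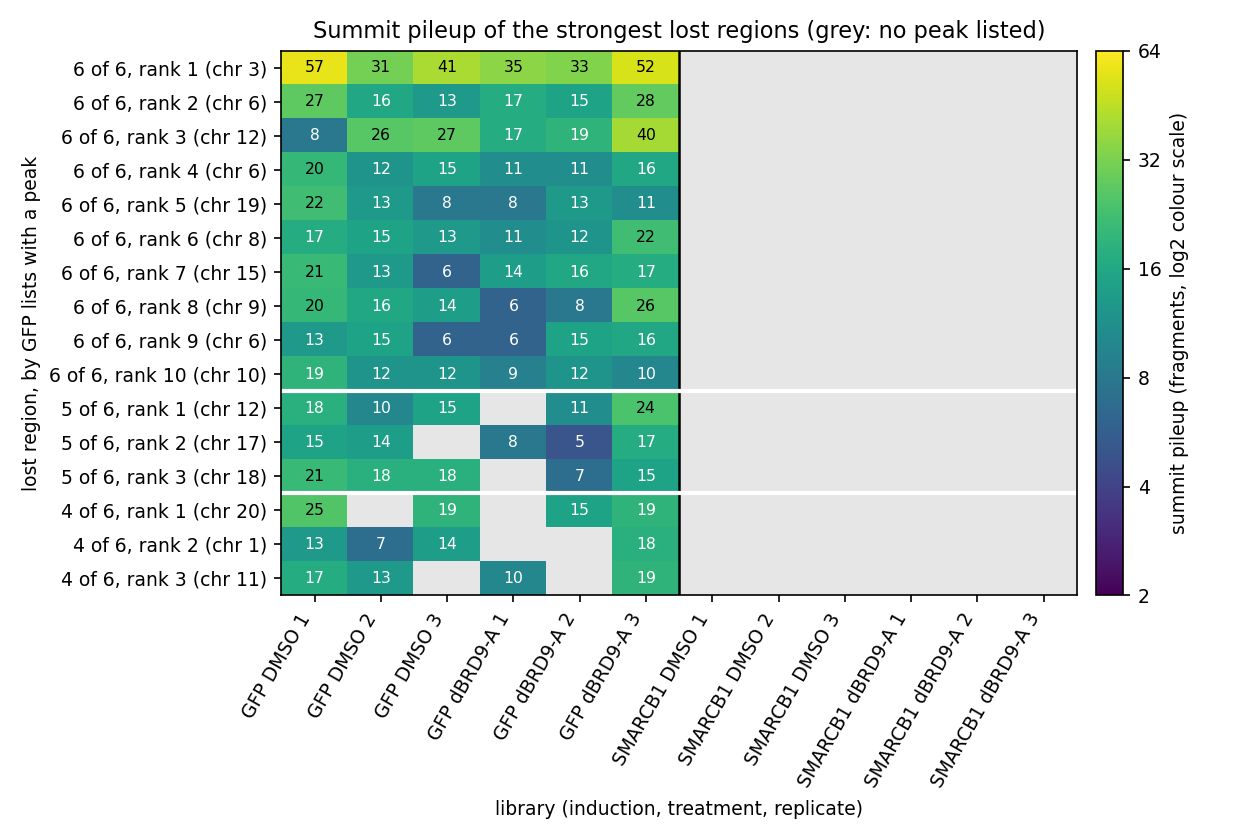
Summit pileup in fragments (numbers and log2 colour scale) of 16 lost regions (rows, ranked by mean fold percentile within 6, 5 and 4 GFP lists) in each of the 12 libraries (columns). Grey cells have no peak in the list; all SMARCB1 cells are grey because the rule asks for it, and the region on chromosome 3 in the top row holds between 31 and 57 fragments in the GFP libraries.

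Regions missing from 1 or 2 GFP lists could be as tall as these where they were found. Of those in 5 lists, chr12:49677914-49678032 had 18, 10 and 15 fragments in DMSO and 11 and 24 in dBRD9-A replicates 2 and 3. At chr17:77944590-77944764 the values were 15 and 14 in DMSO replicates 1 and 2 and 8, 5 and 17 in dBRD9-A. At chr18:46524217-46524439 they were 21, 18 and 18 in DMSO and 7 and 15 in dBRD9-A replicates 2 and 3, with a SMARCB1 peak 140 bp away. The libraries without a peak were dBRD9-A replicate 1 for the first and the last, and DMSO replicate 3 for the other. Of those in 4 lists, chr20:49258590-49258742 had 25 and 19 in DMSO replicates 1 and 3 and 15 and 19 in dBRD9-A replicates 2 and 3. At chr1:16824090-16824236 the values were 13, 7 and 14 in DMSO and 18 in dBRD9-A replicate 3. At chr11:64111415-64111531 they were 17 and 13 in DMSO replicates 1 and 2 and 10 and 19 in dBRD9-A replicates 1 and 3. The nearest SMARCB1 peaks lay 385, 1348 and 953 bp from these 3.

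The strongest regions just outside the rule were of like height. As sets they were lower, with a median of the mean pileup of 4.67 fragments for 3 GFP and 0 SMARCB1 lists. It was 5.5 for at least 4 GFP lists and 1 SMARCB1 list, against 6.4 for lost regions. The strongest with 3 GFP lists and 0 SMARCB1 lists, chr3:136420914-136421003, had 23, 17 and 32 fragments in the dBRD9-A libraries and no peak in any DMSO library. Next came chr19:15443323-15443451, with 11 in DMSO replicate 1 and 8 and 13 in dBRD9-A replicates 1 and 3. After it, chr19:10971931-10972048 had 9 and 15 in DMSO replicates 1 and 3 and 16 in dBRD9-A replicate 3. Among the 128 regions in 6 GFP lists and 1 SMARCB1 list, the SMARCB1 peak had a median of 5 fragments (range 2 to 16), and it was below the region's mean GFP pileup at 105 of them. At the strongest of these, chr16:81763810-81764364 the GFP pileups were 38, 22 and 15 in DMSO and 22, 18 and 19 in dBRD9-A, and the 1 SMARCB1 peak, in DMSO replicate 3, had 5 fragments. At chr1:27396825-27397081 they were 28, 18 and 18 in DMSO and 15, 19 and 28 in dBRD9-A, with 7 fragments in SMARCB1 dBRD9-A replicate 1. At chr12:107523171-107523684 they were 31, 20 and 14 in DMSO and 19, 13 and 17 in dBRD9-A, with 2 fragments in SMARCB1 DMSO replicate 3.

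Whether a list could have shown a peak depends on the lowest pileup it calls. Every list held peaks of 2 fragments, its lowest. The GFP pileups of each lost region were averaged over the libraries with a peak, each scaled to the depth of a SMARCB1 library, and compared with the threshold of its list. Scaled by the background pileup, all 655 regions would pass in all 6 SMARCB1 lists at their GFP level. Scaled by the pileup at regions in all 12 lists, 644 (98.3%) would pass in all 6. The rule selected these same GFP peaks, and averaging only over lists with a peak raises the expected value, so both counts are upper values and nothing is read from them. With GFP lists that lacked a peak counted as 0 fragments, 571 (87.2%) and 417 (63.7%) would pass in all 6. Of the 116 regions in 6 GFP lists, 116 and 115 would pass by the 2 scalings. Of the 357 in 4 GFP lists, counted with missing lists at 0, 273 (76.5%) and 132 (37.0%) would, and 32 would pass in none of the 6 by the second. The 116 have expected pileups with a median of 8.34 to 19.0 fragments in the SMARCB1 lists by the first scaling and 6.72 to 10.7 by the second. Chance sampling around these expected values is not part of the count.

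Thinning changed which regions met the rule. At the depth of the shallowest library by background pileup, 955 regions met the rule, 3.27% of those in at least 4 GFP lists, and 18458 met the mirrored rule; 499 of the 655 (76.2%) overlapped one that was still lost. At equal pileup over the regions in all 12 lists, 673 met it (2.29%) and 25531 the mirrored rule, and 518 of the 655 (79.1%) overlapped one still lost. The order of the counts, far fewer lost than gained, was the same in both.

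A stratified exact permutation test of presence, SMARCB1 against GFP within treatment, was run on the 88398 regions present in 2 to 10 lists, with Benjamini-Hochberg adjustment. It used the contrast of the rule and is given as a description. Among all regions 0.131% were called lower with SMARCB1, 116 regions, and these were the lost regions in 6 GFP lists (exact permutation test, adjusted p = 0.0321). With 4 or 5 GFP lists the exact test does not reach the threshold after adjustment, and the highest adjusted p among lost regions was 0.210. By comparison 15.4% were called higher, 13634 regions. Regions in all 6 lists of an induction and 0 of the other must have the lowest exact permutation p, 0.005, in either direction. The adjusted p of the 116 therefore rests mostly on the number of regions called higher, and nothing is read from it. At an unadjusted p under 0.05, 0.482% of the regions were lower, 426 in all, and 298 of them were lost regions.

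Whether loss called in some libraries is seen in others can be asked, since the DMSO and dBRD9-A arms hold separate libraries. The arms are not independent of each other. Libraries of the same replicate number deviated together, as the closing section gives, and the p-values of 0.1 leave this out. Calls made in the DMSO arm alone, at least 2 of 3 GFP lists and 0 of 3 SMARCB1 lists, gave 2312 regions, 6.83% of the 33835 in at least 2 GFP DMSO lists. In the dBRD9-A arm, these regions had a peak in 34.1%, 40.1% and 64.1% of cases in the GFP libraries and 20.7%, 16.6% and 23.0% in the SMARCB1 libraries. Every GFP library was above every SMARCB1 library. The means were 46.1% ± 15.9 and 20.1% ± 3.26 (SD, n = 3 each), a difference of 26.0 percentage points (two-sided exact permutation test, p = 0.1, the smallest that 3 against 3 allows). By replicate number the difference was 13.4, 23.6 and 41.1 points (exact sign-flip test, p = 0.25, the smallest that 3 numbers allow). Leaving out GFP dBRD9-A replicate 3, the deepest GFP library, gave 17.0 points. Lists of equal length gave 50.7 points from 7588 regions. That shortening takes more peaks from the longer SMARCB1 lists, which can widen the difference by itself.

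The reverse gave a like value. Calls in the dBRD9-A arm gave 2379 regions, 6.95% of 34244. They had a peak in 51.9%, 39.1% and 36.1% of cases in the GFP DMSO libraries and in 13.0%, 26.1% and 15.8% in the SMARCB1 DMSO libraries, again without overlap. The means were 42.4% ± 8.38 and 18.3% ± 6.87 (SD, n = 3 each), a difference of 24.1 points (two-sided exact permutation test, p = 0.1). By replicate number the difference was 38.8, 13.1 and 20.3 points (exact sign-flip test, p = 0.25). It was 37.4 points without GFP dBRD9-A replicate 3. That library took part in these calls, so both remaining GFP lists were required and only 763 regions were called. With lists of equal length the difference was 51.7 points, with the same limit. Without such a selection, all regions in at least 2 GFP lists of the calling arm differed between the inductions by less than the spread. For DMSO calls the shares were 83.7% ± 7.30 in GFP and 84.0% ± 2.84 in SMARCB1 libraries. For dBRD9-A calls they were 82.9% ± 4.81 and 82.5% ± 3.33 (SD, n = 3 each). These sets were not matched for strength to the regions called lost, so they do not show what weak peaks alone would give.

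More than 1 in 2 of the regions called lost in one arm were, on average, missing from a GFP library of the other arm. Gained regions called by the mirrored rule had other shares. The SMARCB1 lists were longer and their libraries deeper (background pileup 0.0827 against 0.0517 in GFP). The part of this in the contrast was not tested. The 38868 called in DMSO had a peak in 71.1% ± 8.38 of cases in SMARCB1 dBRD9-A lists and 3.14% ± 2.1 in GFP dBRD9-A lists (SD, n = 3 each). The 38661 called in dBRD9-A had one in 71.7% ± 2.91 of cases in SMARCB1 DMSO lists and 2.67% ± 0.845 in GFP DMSO lists (SD, n = 3 each). Calls that required 3 of 3 GFP lists were fewer, 605 in DMSO and 565 in dBRD9-A, and their differences were 42.3 and 44.0 points (exact permutation p = 0.1 each).

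The full rule was also applied without 1 library, with the minimum kept at 4 GFP lists. Lost regions called without it were found in the GFP library left out in 78.4%, 61.3% and 55.4% of cases for DMSO and 54.5%, 58.7% and 84.7% for dBRD9-A (mean 65.5% ± 12.8, SD, n = 6). For a SMARCB1 library left out, 8.26%, 23.7% and 12.7% had a peak in it for DMSO and 16.2%, 13.7% and 20.4% for dBRD9-A (mean 15.8% ± 5.55, SD, n = 6). GFP shares ranged above all SMARCB1 shares, but the region sets were unlike. They held 339 to 470 regions with a GFP library left out and 714 to 858 with a SMARCB1 library left out. The other libraries in each call are those that the rule used, so this is a description and not a further test. The size of the set depended on single libraries: leaving out GFP dBRD9-A replicate 3 gave 339 regions, leaving out GFP DMSO replicate 1 gave 371 and leaving out GFP DMSO replicate 2 gave 426. With a GFP library left out, the 4 lists must come from 5.

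**Figure D3:**
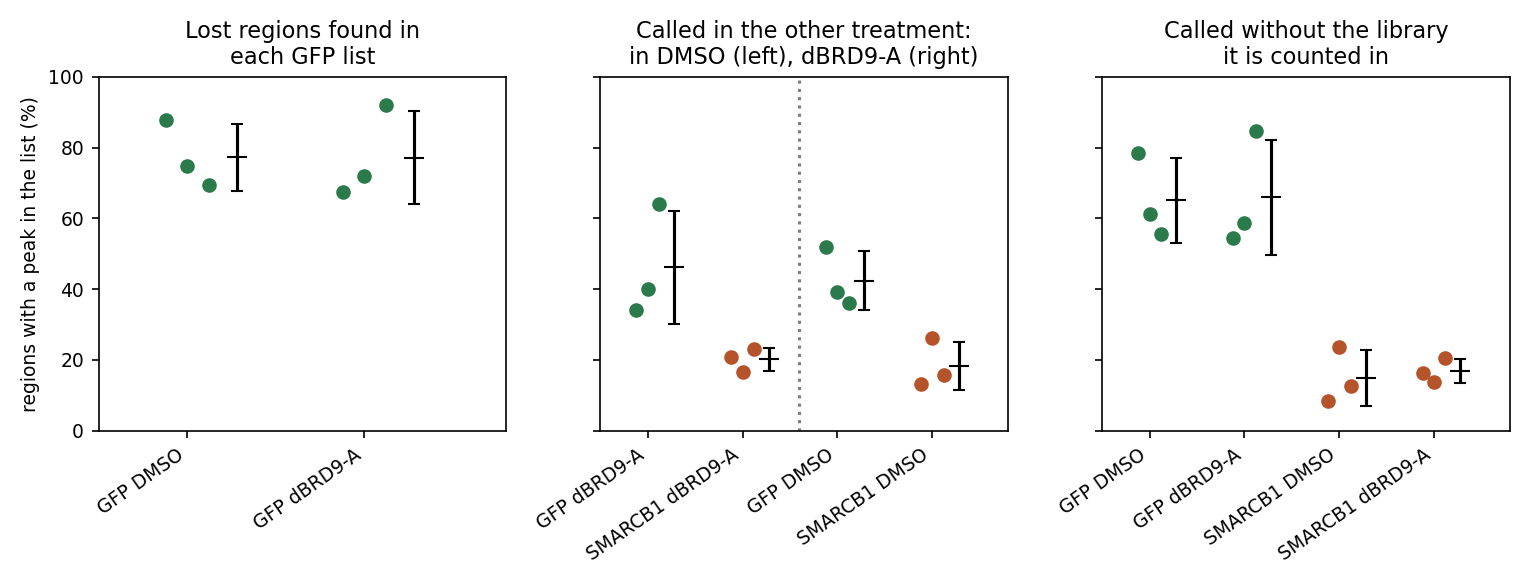
Percent of regions with a peak in each library (vertical axis); each point is 1 library, green for GFP and orange for SMARCB1, and bars give the mean and SD. From left to right: the 655 lost regions in the GFP lists that chose them; regions called lost in the other treatment arm, where all GFP points (34.1% to 64.1%) lie above all SMARCB1 points (13.0% to 26.1%); and regions called lost without the library shown.

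Treatment with dBRD9-A was not named in the rule, but the GFP lists compared here are those that chose the regions. At least 4 GFP lists cannot all come from a treatment with 3 libraries. Regions found only in DMSO or only in dBRD9-A were thus excluded beforehand, which pushes the shares toward balance. The lost regions were found in 575 (87.8%), 490 (74.8%) and 454 (69.3%) cases in the GFP DMSO lists and in 441 (67.3%), 471 (71.9%) and 603 (92.1%) in the GFP dBRD9-A lists. The ranges overlapped throughout. The means were 77.3% ± 9.49 and 77.1% ± 13.2 (SD, n = 3 each), a difference of -0.204 points (two-sided exact permutation test, p = 1). The other regions in at least 4 GFP lists gave 92.7% ± 3.73 and 92.3% ± 5.22, a difference of -0.337 points (exact permutation p = 0.9). With 3 libraries a group no difference beyond the spread was seen, and a difference smaller than the spread could not have been detected. Because the selection favours balance in both sets, these values are a description, and nothing is read from them on the effect of dBRD9-A.

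Depth moved with these shares. The highest, DMSO replicate 1 and dBRD9-A replicate 3, were in the libraries with the highest background pileups of the GFP libraries, 0.0678 and 0.0784, while the other 4 lay between 0.0383 and 0.0446. Median pileups of the lost regions were 7, 6 and 5 fragments in the DMSO lists and 5, 5 and 8 in the dBRD9-A lists, and their median folds were 6.10, 5.37 and 5.10, and 4.98, 5.44 and 6.33. Here too the 2 deepest libraries were highest. The part of depth in which regions entered the set was not tested.

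No single lost region differed by treatment in the permutation test across all regions. Stratified by induction, dBRD9-A against DMSO called 0 of 88398 regions after Benjamini-Hochberg adjustment (0%, lowest adjusted p of 1 in the exact permutation test), and 57 regions (0.0645%), none of them lost regions, passed an unadjusted p of 0.05. A lost region cannot pass, since with no SMARCB1 peaks its lowest possible exact p is 0.4. A peak in 3 DMSO lists and 1 dBRD9-A list was found for 77 lost regions (11.8%), and the reverse for 74 (11.3%). The other 30263 regions in at least 4 GFP lists showed these patterns in 2.99% and 2.76% of cases. Among the 4316 of them in exactly 4 GFP lists, the only ones that can show them, the shares were 21% and 19.3%, and 357 lost regions were in exactly 4. The strongest of the first kind, after chr1:16824090-16824236, was chr10:105113181-105113276, with 13, 7 and 12 fragments in DMSO and 11 in dBRD9-A replicate 3. Then came chr8:132908262-132908567, 52 bp from another lost region, with 17, 9 and 14 in DMSO and 17 in dBRD9-A replicate 3. In all 3 the only dBRD9-A peak was in replicate 3, the deepest GFP library. Of the reverse kind, chr10:75670800-75670956 had 12 in DMSO replicate 1 and 10, 11 and 12 in dBRD9-A. At chr7:101205935-101206061 the values were 9 in DMSO replicate 1 and 9, 9 and 14 in dBRD9-A. At chr19:900379-900883 they were 5 in DMSO replicate 2 and 8, 12 and 13 in dBRD9-A.

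Lost regions had a SMARCB1 peak within 1 kb or 10 kb about as often as other regions, and within 5 kb more often. A peak of some SMARCB1 list was within 1 kb of 202 lost regions (30.8%), against 33.6% of the other regions in at least 4 GFP lists and 28.8% of all regions. Within 5 kb the shares were 75.1%, 64.8% and 62.7%, and within 10 kb 85.6%, 85.2% and 82.3%. The nearest region present in all lists was at a median of 18.0 kb, against 20.7 kb for the other regions.

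Gained regions were close to lost ones at a middle distance. Within 5 kb, 178 lost regions (27.2%) had a gained region, against 12.9% of the other regions in at least 4 GFP lists, 11.4% of those in all 12 lists and 16.0% of all regions. The regions just outside the rule were also high, at 23.5% for 3 GFP and 0 SMARCB1 lists and 21.4% for at least 4 GFP lists and 1 SMARCB1 list. Within 10 kb the share was 36.5% of lost regions and 26.2% of the other regions. Both kinds were chosen on the same contrast, so these are descriptions and no test was made.

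Most lost regions had no other nearby, yet they had one more often than other regions did. Within 10 kb, 42 lost regions (6.41%) had another lost region. The share was 1.91% for the other regions in at least 4 GFP lists and 1.21% for all regions. No test was made of this. The median distance to the next lost region was 603 kb, and 102 (15.6%) had one within 50 kb. The sets just outside the rule, of like size, had another of their own within 50 kb for 11.4% and 8.60% of regions. Joining lost regions no more than 50 kb apart left 553 alone, 30 pairs, and 12 runs of 3 to 6 regions that held 42 in all.

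The longest run by number was chr10:54375493-54449068, where 6 of the 19 regions over 73.6 kb were lost and 4 had a peak in some SMARCB1 list. Its peaks numbered 14, 13 and 7 in the GFP DMSO lists and 8, 11 and 10 with dBRD9-A, against 2, 3 and 3 in the SMARCB1 DMSO lists and 4, 3 and 2 with dBRD9-A. These counts include the peaks that the rule selected. Outside its lost regions the run had 9, 6 and 5 peaks in GFP DMSO lists and 3, 7 and 4 with dBRD9-A, a mean of 5.67 ± 2.16, against 2.83 ± 0.753 in the SMARCB1 lists (SD, n = 6 each), and the 2 ranges overlapped. None of its lost regions was tall: the pileups ranged from 4 to 13 fragments. The single lost region at chr10:54073868-54074078, among the 10 strongest, lay 301414 bp before it.

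On chromosome Y, 4 regions lay within chr Y:14489654-14570972, an 81.3 kb stretch, and all 4 were lost. The peaks there numbered 4, 4 and 5 in GFP DMSO and 4, 3 and 4 in GFP dBRD9-A lists, and 0 in all 6 SMARCB1 lists, and all of them lay in lost regions. The pileups at the third of them, Y:14533336-14533566, were 13, 6 and 6 in DMSO and 10, 5 and 14 in dBRD9-A. At the last, Y:14570404-14570972, they were 10, 5 and 8 in DMSO and 6, 7 and 9 in dBRD9-A. The other 2 had 3 to 11 fragments. No SMARCB1 list had a peak anywhere in the surrounding 1152 kb, Y:13428947-14580980, which held 6 regions, 4 of them in at least 4 GFP lists. Chromosome Y had 6 of its 33 regions in at least 4 GFP lists lost (18.2%), against 1.10% to 3.12% of those on each other chromosome. The SMARCB1 lists were not short of Y peaks: they had 136 ± 25 on the chromosome and the GFP lists 47.0 ± 14.3 (SD, n = 6 each). The 33 regions are few, and with so few each lost region moves the share by a large step.

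Other runs were shorter or mixed. At chr9:138994525-139001765, 3 of 4 regions over 7.24 kb were lost; the peaks numbered 3, 2 and 3 in GFP DMSO and 3 in each GFP dBRD9-A list, and SMARCB1 DMSO replicate 1 and dBRD9-A replicate 1 had 1 each and the other 4 none. Its lost regions were among the taller ones, with pileups of 6 to 26 fragments. At chr12:107503795-107521455, 3 of 7 regions were lost, and outside these the lists had 0.333 ± 0.816 GFP and 0.333 ± 0.516 SMARCB1 peaks (SD, n = 6 each). Next to it, 1715 bp from the closest lost region, lay chr12:107523171-107523684, the region with 2 fragments in 1 SMARCB1 list. At chr6:112643161-112693710, which includes the strong region at 112668427, 3 of 8 were lost, and outside these the lists had 2.67 ± 0.516 GFP and 1.67 ± 0.516 SMARCB1 peaks (SD, n = 6 each).

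Some runs also held regions found under both inductions. At chr10:28965688-29019378, 4 of 18 regions were lost and 4 were in at least 4 lists of each induction, and outside the lost regions the lists had 6.67 ± 1.03 GFP and 7.83 ± 0.983 SMARCB1 peaks (SD, n = 6 each). At chr10:74060882-74114455, 3 of 14 were lost and 4 were in at least 4 lists of each, with 4.67 ± 1.21 GFP and 7.17 ± 1.33 SMARCB1 peaks outside the lost regions (SD, n = 6 each). At chr15:35310775-35363525, 4 of 13 were lost and only 1 was in at least 4 lists of each, with 2.33 ± 1.21 GFP and 3.33 ± 1.86 SMARCB1 peaks outside the lost regions (SD, n = 6 each). Other runs held both lost and gained regions: at chr12:132999868-133037399, 3 of 8 regions were lost and 3 gained, and at chr15:40343191-40389139, 3 of 14 were lost and 3 gained.

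**Figure D4:**
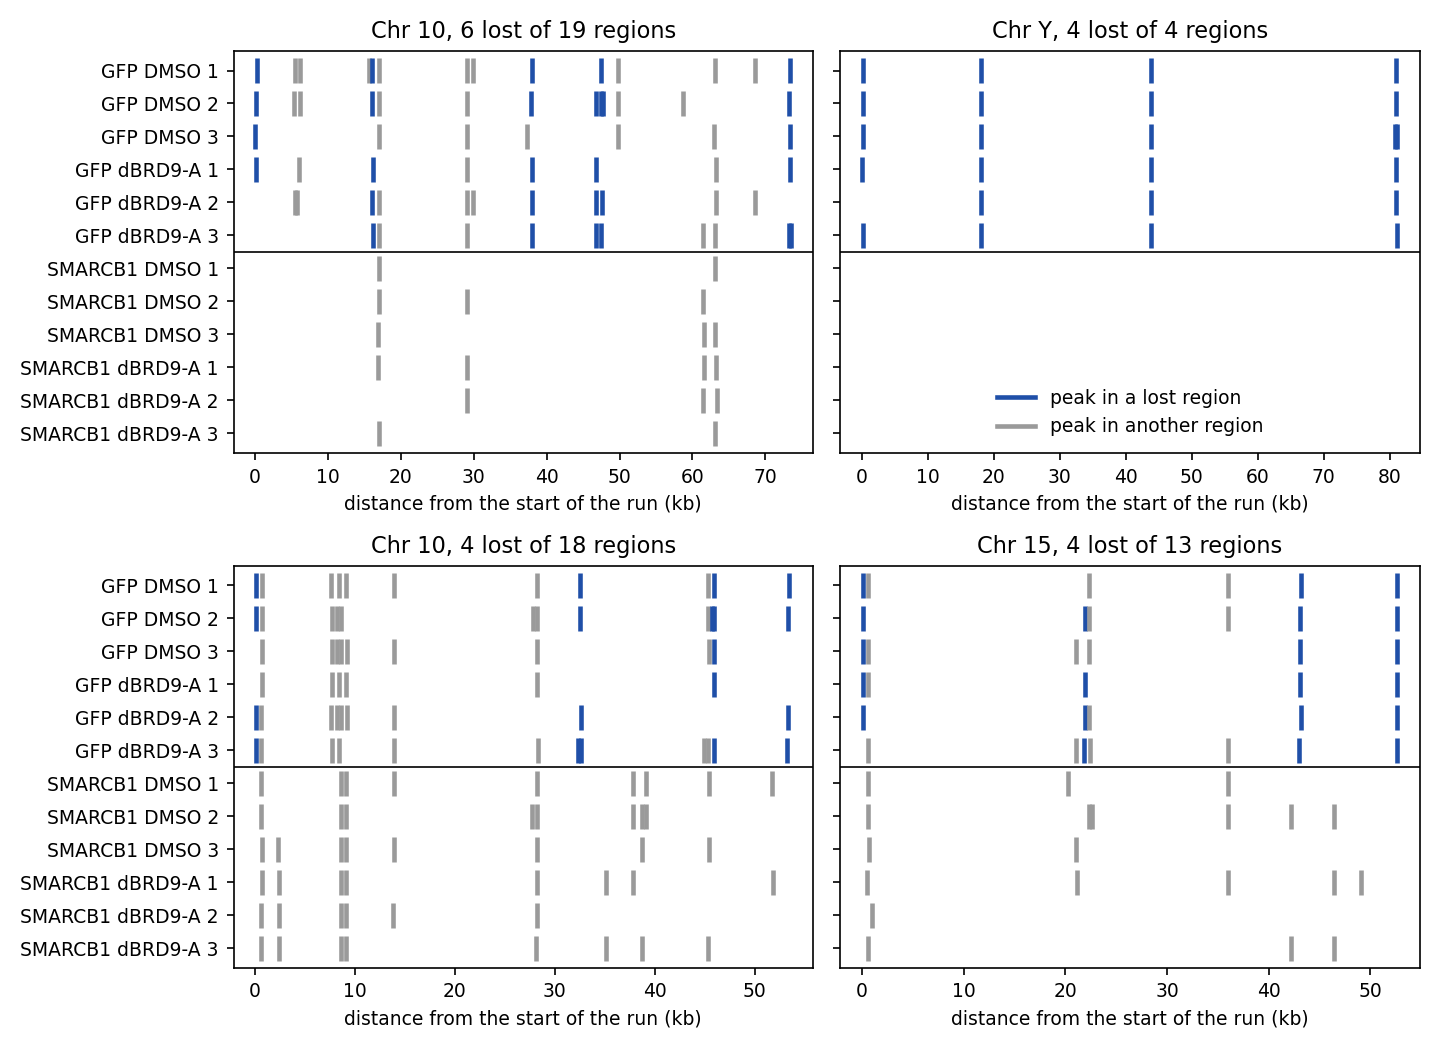
Peaks of each library (rows; GFP above the line, SMARCB1 below) along 4 runs of lost regions, by distance from the start of the run in kb; blue marks are peaks in lost regions and grey marks peaks in other regions. Over the 81.3 kb on chromosome Y the SMARCB1 lists have 0 peaks, the 73.6 kb run on chromosome 10 has 2 to 4 per SMARCB1 list, and the lower panels hold other regions with peaks under both inductions, 4 in at least 4 lists of each on chromosome 10 and 1 on chromosome 15. Each run starts and ends at a lost region.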

How the data were processed

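ATAC-seq of 12 libraries was analysed from the deposited peak lists, 1 per library, made from nucleosome-free fragments per the labels. The submitters' processing notes list BWA 0.7.12-r1039, SAMtools 1.2, bedtools 2.24.0 and MACS2 2.1.1.20160309 and the build hg19; settings and a filter on the peaks are not given in the sources used here. Each list gives, as the authors' peak caller wrote them, a fold (a ratio of summit pileup to background), the −log10 of p and of q, and an integer score that was not used. Coordinates are 1-based.

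Summit pileup and background were recovered by solving fold = (pileup + 1)/(background + 1) together with the Poisson p; 99.9954% of 742200 peaks gave a whole pileup within 0.001. The lowest background in a list stood for its depth. Regions, presence and distances were computed with Python 3.11.15, numpy 2.4.6, pandas 2.3.3 and scipy 1.17.1. Tests were two-sided exact permutation tests: 400 arrangements per region stratified by the other factor, with Benjamini-Hochberg adjustment over 88398 regions at 0.05, and 20 arrangements for shares per library.

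The regions named were the 10 of highest mean fold percentile in 6 GFP lists, the 3 highest in 5 and in 4, just outside the rule and in each one-sided treatment pattern. The lost regions, lists and tests were chosen with earlier results of these data known, and runs (within 50 kb, at least 3 regions) after seeing the positions. GC content, motifs, promoters, genes and sequences were planned and not run, because no genome or annotation of hg19 was used here. Alternatives are under the closing section.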

Additional observations from a re-analysis of the deposited data

How the results depend on the processing

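The number of lost regions was 3990 with lists shortened to 33428 peaks each, which takes more peaks from the longer SMARCB1 lists, 1450 with at least 3 GFP lists, 298 with at least 5, 116 with 6 of 6, and 1411 with 1 SMARCB1 list allowed. Leaving out 1 library gave 339 to 858. The other settings, a −log10 q of at least 5, both thinnings, presence by 50% cover and windows of 100 bp around summits, gave 538, 955, 673, 670 and 685. Equal pileup at shared regions was added after seeing the data.

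The difference in shares between GFP and SMARCB1 libraries kept its direction in all 20 alternatives for each calling arm: 23.5 to 50.7 points for DMSO calls (17.0 to 35.5 with a library left out) and 21.9 to 51.7 for dBRD9-A calls (19.3 to 37.4), with exact p between 0.1 and 0.25, at which the design cannot pass 0.05. The highest values, 50.7 and 51.7, came from lists of equal length, a setting that takes more peaks from the longer SMARCB1 lists. The lowest left-out values were without GFP dBRD9-A replicate 3 (17.0) and without GFP DMSO replicate 1 (19.3), the deepest GFP libraries. The highest left-out values, 35.5 and 37.4, came where 1 of these took part in the calls. Both remaining GFP lists were then required, and 856 and 763 regions were called. The difference by treatment changed sign at equal depth (0.454 points), equal shared pileup (0.198), with summit windows (0.633) and with at least 5 lists (0.224), and ran from -3.98 to 4.90 with a library left out (exact p between 0.6 and 1).

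Libraries of the same replicate number deviated together (18 pairs, correlation 0.0482 to 0.227, 10 above 0.1; 36 pairs of different number, -0.171 to 0.0165), and 12 of 12 correlated best with their own number. Every pair of the same number thus lay above every pair of different number. The labels do not say that a number marks a shared batch, so the main tests assumed no pairing and their p-values leave this structure out. With the replicate block the 3 differences were 26.0 (13.4, 23.6 and 41.1 per number; exact sign-flip p = 0.25), 24.1 (38.8, 13.1 and 20.3; p = 0.25) and -0.204 points (-20.5, -2.90 and 22.7; p = 1); 0.25 is the smallest p that 3 numbers allow.

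The deepest GFP lists held the largest share of the lost regions, and the part of depth in this was not tested. Sequence composition at summits, with other window widths or another choice of summit, was not analysed, as no sequence of the build was used here.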
